A study of Mus musculus with 8 samples.

Results

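The genes of the mTOR kinase and its nearest partners were examined for chromatin accessibility in E14 cells, a wild-type mouse embryonic stem cell line, with and without an inhibitor of that kinase. The 10 genes were Mtor, Rptor, Rictor, Deptor, Akt1s1, Tsc1, Tsc2, Rheb, Rps6kb1 and Eif4ebp1. A peak of accessibility belonged to a gene's window when its centre lay inside the gene's span in GRCm38 or within 50 kb of it. Of 134407 peaks in all, 232 fell in such a window. The gene was the nearest protein-coding gene for 111 of these, called its own peaks here, and another gene was nearer for the other 121. Accessibility was read out with ATAC-seq: a Tn5 transposase cuts open DNA and adds adapters there, and the cut sites are sequenced. Both groups were grown on gelatin in serum with LIF. The 4 control libraries came from a control condition whose vehicle the labels do not name, and the 4 paused libraries from cells held for 24 h in 200 nM INK128. Each library was made from 50000 live cells. All libraries came from 1 cell line, and the labels do not say whether replicates were separate cultures, so that p-values measure the spread between these samples, which may be technical.

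mTOR is a serine/threonine kinase that drives protein synthesis, ribosome production and growth when amino acids and growth factors are plentiful. It works in complex 1, which Raptor (Rptor) directs to substrates such as S6 kinase 1 (Rps6kb1) and the translation repressor 4E-BP1 (Eif4ebp1), and in complex 2, which holds Rictor and acts on Akt and related kinases. Deptor and PRAS40 (Akt1s1) restrain the kinase, the GTPase Rheb switches complex 1 on, and the Tsc1 and Tsc2 complex keeps Rheb off. INK128 occupies the ATP site of the kinase and so acts on both complexes, and mTOR inhibition of this kind brings mouse embryonic stem cells into a paused state resembling diapause.

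The promoter sequences of 3 genes are shown, those of the kinase gene, of its complex 1 partner and of its activator. Their start-site peaks are among those compared most closely below, and none of the 3 promoter windows runs into an annotated protein-coding gene. Each is the 250 bases before the start site, 5′ to 3′ on the gene's strand, from RefSeq (GRCm38.p6). A promoter was listed there for 8 of the 10 genes, and Deptor and Eif4ebp1 are named only. Capitals mark matches, on either strand, to 4 motifs: CACGTG (the E-box bound by factors such as TFEB and Myc), CCAAT or ATTGG (the CCAAT box), CCGGAAGT or ACTTCCGG (an ETS-type site) and GCATGCGC or GCGCATGC (part of an NRF1-type site).
Mtor, chr4:148448332-148448581, plus strand: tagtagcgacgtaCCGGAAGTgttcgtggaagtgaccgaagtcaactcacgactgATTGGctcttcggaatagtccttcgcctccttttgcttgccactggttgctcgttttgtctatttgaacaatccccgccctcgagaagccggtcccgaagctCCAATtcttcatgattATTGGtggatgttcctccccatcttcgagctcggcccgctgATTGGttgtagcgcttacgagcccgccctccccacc
Rptor, chr11:119602655-119602904, plus strand: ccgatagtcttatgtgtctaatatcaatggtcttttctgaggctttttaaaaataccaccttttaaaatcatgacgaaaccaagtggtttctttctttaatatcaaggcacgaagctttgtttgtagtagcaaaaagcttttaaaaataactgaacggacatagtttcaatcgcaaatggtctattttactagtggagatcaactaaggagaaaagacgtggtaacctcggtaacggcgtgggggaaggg
Rheb, chr5:24842362-24842611, minus strand: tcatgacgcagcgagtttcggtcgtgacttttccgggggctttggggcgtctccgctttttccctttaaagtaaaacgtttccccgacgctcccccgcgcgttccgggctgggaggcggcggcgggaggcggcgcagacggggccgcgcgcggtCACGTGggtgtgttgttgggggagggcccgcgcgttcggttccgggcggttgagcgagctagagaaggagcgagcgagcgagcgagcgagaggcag
The Mtor promoter held 4 CCAAT boxes, whose first bases lay 195, 93, 77 and 36 bases before the start, and an ETS-type match at 237 bases. Rheb held 1 E-box, 96 bases before its start, and the Rptor window held none of the 4 motifs. Of the 5 promoters not printed, Rictor had a CCAAT box at 161 bases, Akt1s1 an ETS-type match at 49 bases, Tsc2 an ETS-type match at 8 bases and Rps6kb1 an NRF1-type match at 99 and at 14 bases. Tsc1 had no match. Among 32841 mouse promoters of the same length, 6.02% held the E-box, 33.9% the CCAAT box, 2.88% the ETS-type and 2.26% the NRF1-type letters. The bases were 37.6% G or C in Rptor, 54.4% in Mtor, 68.0% in Rheb and 81.2% in Rictor, with a median of 52.4% over all promoters. A match describes the letters only. The printed windows hold 201 bases of the start-site peak at Mtor but 41 at Rptor and 73 at Rheb, so most of the latter 2 peaks lies outside them.

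The deposited values are reads per peak divided by 1 factor per library, over peaks that were all 201 bp wide, so that levels of different peaks do not differ through width. Other differences between peaks, such as base composition, were not corrected for, and levels are compared below as deposited. Control replicate 1 had the most reads in peaks, 21161767, and the other libraries had 4434037 to 7238935. At the median peak this came to 91 reads against 18 to 29, or a counting error on the log2 scale of 0.15 against 0.34 for the shallowest library. As a check of the cell type, 8 embryonic stem cell genes had 140 own peaks, 17.5 per gene, and 14 genes of endoderm, mesoderm, neural, trophoblast and fibroblast cells had 105, 7.5 per gene. Esrrb alone held 43 of the 140. Counts of own peaks also depend on gene length and on how near other genes lie, and were not adjusted for either. Esrrb spans 160512 bp, and 4 of 15 window peaks were own peaks at Pou5f1 against 22 of 22 at Sox2. A peak within 1 kb of an end was present at 6 of the 8 stem cell genes, not at Pou5f1 and Tdgf1, and at 10 of the 14 others. The share of the reads that came from other cells was not tested.

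Accessibility at the mTOR genes changed at 12 of the 105 own peaks that were strong enough to test, and 11 of the 12 lay at Rptor and Deptor. It rose at 10 peaks, 6 of Rptor, 3 of Deptor and 1 of Tsc2, and fell at 2, 1 of Rptor and 1 of Deptor. The test was limma-trend on log2(value + 1) with a Benjamini-Hochberg adjusted p under 0.05 over 127402 peaks, those whose mean value reached 10 or more. Of all those peaks 13.9% were called, 11.0% higher and 2.91% lower, against 11.4% of the own peaks of the 10 genes. The share is near the background, and the number of calls is not in itself a result about these genes. The tested own peaks had a median change of 0.07 on the log2 scale, from -1.07 to 0.92, and the median over all tested peaks was 0.10. The other 6 own peaks were below the limit for testing.

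The calls were unevenly placed. Rptor and Deptor had 11 calls among 57 tested peaks, and the other genes with own peaks had 1 among 48. By share, 21.2% of the tested Rptor peaks and 16.7% of the tested Deptor peaks were called, against 13.9% of all tested peaks. The 2 genes were set apart after the calls were known, and no test was made of that unevenness. Inside the genes 9 peaks rose and 2 fell among 83 tested, and outside them 1 of 22 rose. Among the 30 own peaks that belonged to the strongest 30% of all tested peaks, 9 rose, none fell and the median change was 0.24. The other 75 had 1 rise, 2 falls and a median of -0.00. Rises were also more frequent among strong peaks over the whole table, where 19.3% of the strongest 30% were called higher and 1.08% lower, against 7.37% and 3.69% of the rest.

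**Figure D1:**
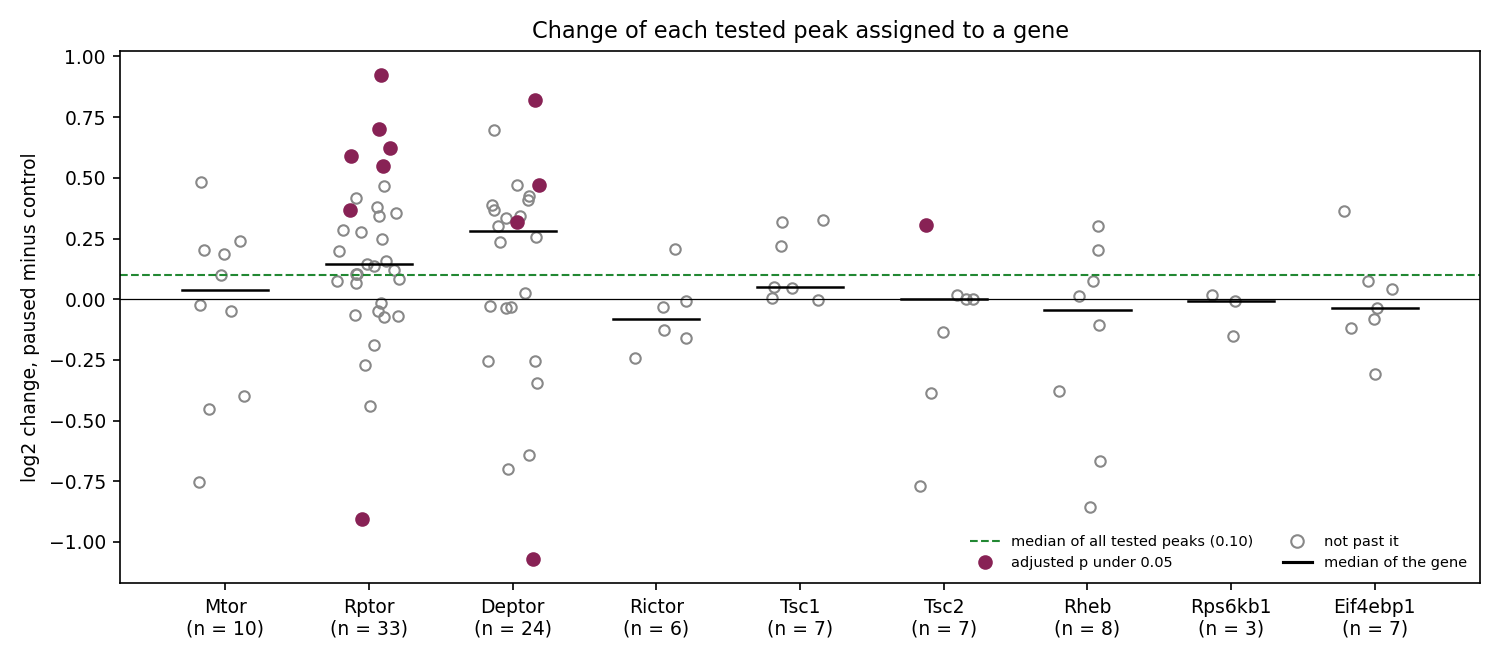
Log2 change (paused minus control) of each tested own peak, by gene, with filled points for peaks past the adjusted p of 0.05. Filled points lie in the columns of Rptor, Deptor and Tsc2, and the other genes have none.

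Peak strength moved with the change over the whole table. With the tested peaks put into 10 equal classes by strength, the weakest class had a median change of -0.19 and the strongest one of 0.20. After a loess correction for strength within each sample the own peaks had a median change of -0.01. The calls also leaned less to one side under other scalings: 79.0% of all called peaks were higher with the deposited factors, 59.1% after TMM rescaling, 56.3% in edgeR with TMM and 59.3% after the loess correction. TMM called 5.99% of all peaks higher and 4.15% lower, edgeR with TMM 7.13% and 5.54%, and the loess correction 5.10% and 3.50%. DESeq2 made the fewest calls, 3902 of the 127402 peaks higher and 1892 lower, so that 67.35% of its calls were higher. Of the 12 own peaks called, TMM kept 7, edgeR with TMM 8, the loess correction 5 and DESeq2 2. The deposited factors were kept for the values below, with the other scalings named wherever they end a call.

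**Figure D2:**
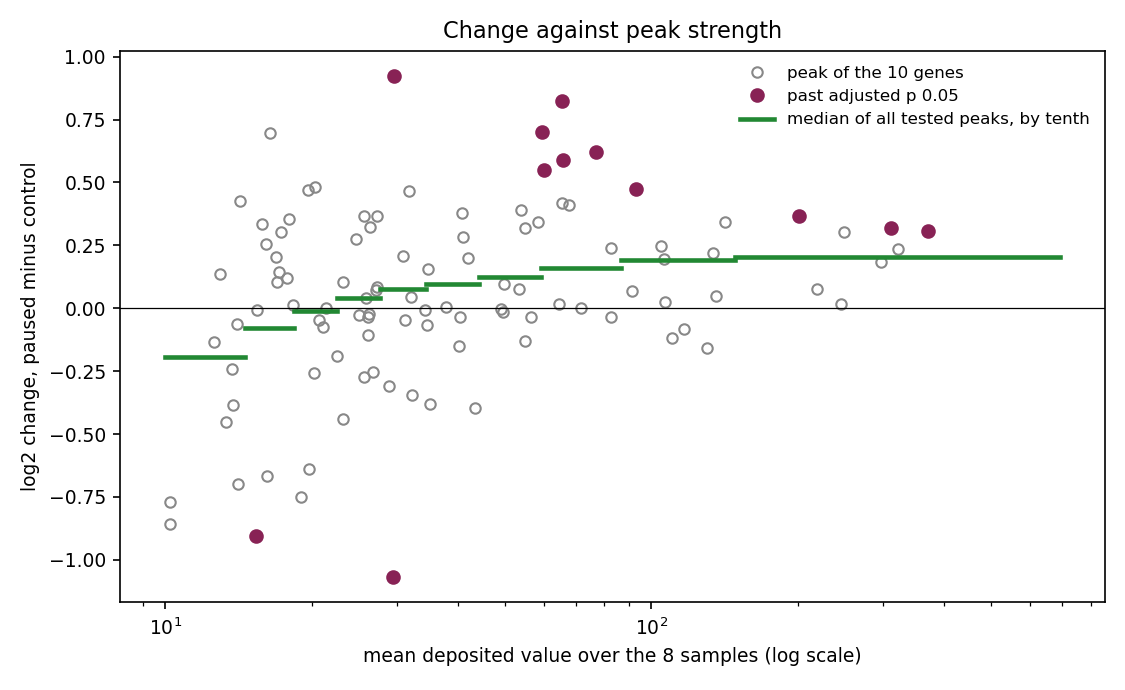
Log2 change (paused minus control) of the tested own peaks against their mean deposited value on a log axis, with the median change of each of 10 strength classes of all tested peaks. The line over all peaks runs from -0.19 at the weakest class to 0.20 at the strongest, and the own peaks called higher lie mostly on the right.

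A peak stood within 1 kb of the start site at 7 of the 8 genes whose start site was listed, and within 1 kb of the lower end of the span at Deptor and Eif4ebp1. Over the genome 55.9% of 27025 genes with a listed start site had such a peak. In control cells these peaks spanned a wide range of levels. Tsc2 was highest at 331 ± 15.8 (SD, n = 4), followed by Mtor at 277 ± 10.1, Deptor at 276 ± 12.2, Rps6kb1 at 243 ± 15.2, Rheb at 223 ± 23.8, Rptor at 176 ± 31.8, Tsc1 at 125 ± 25.5, Eif4ebp1 at 119.9 ± 8.23 and Rictor at 57.2 ± 12.0. The control values of Mtor and Deptor overlapped, as did those of Rps6kb1 and Rheb, of Rptor and Tsc1, and of Tsc1 and Eif4ebp1. Tsc2 stood clear of Mtor, Deptor of Rps6kb1, Rheb of Rptor, and Eif4ebp1 of Rictor. Of these 9 peaks 3 were called, all higher in paused cells: Rptor, Deptor and Tsc2. Over the genome 11.3% of 13757 peaks nearest to a start site were called higher and 1.04% lower.

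**Figure D3:**
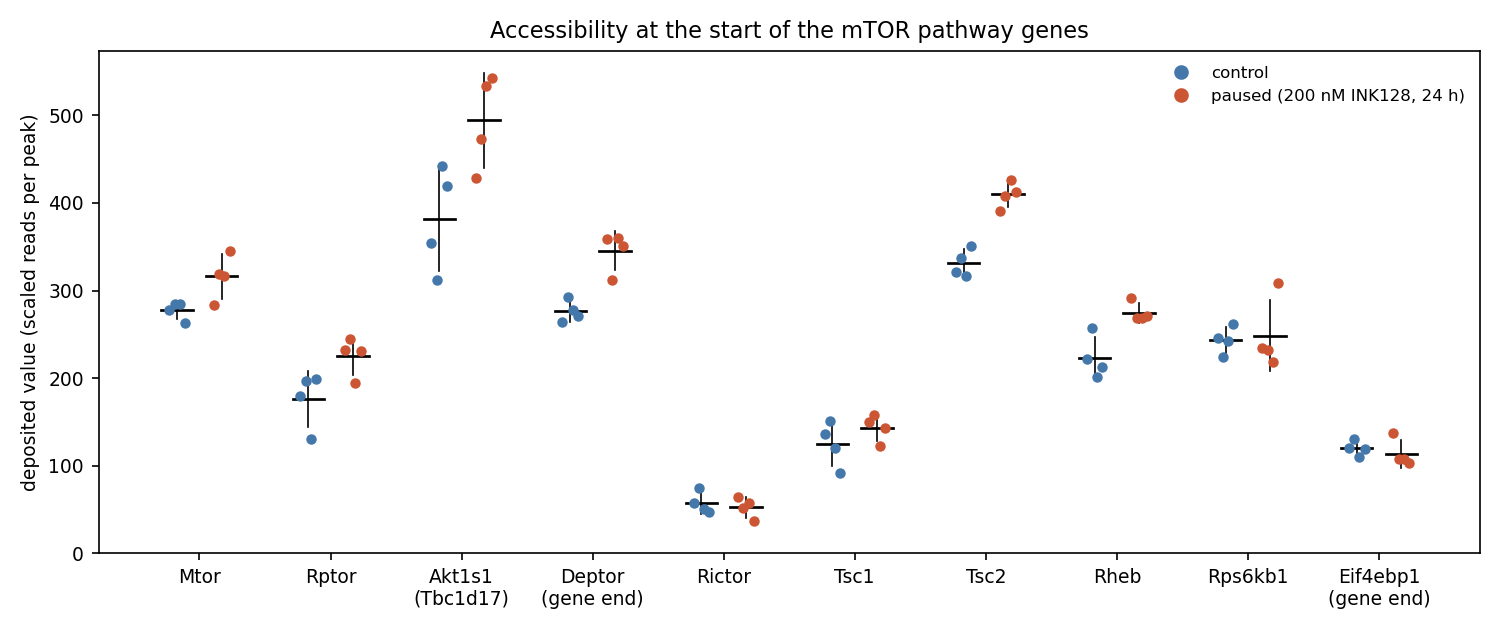
Deposited value of each library (points) and group mean with SD (bars and lines) at the peak nearest to the start site or, for Deptor and Eif4ebp1, to the lower end of the gene, in 4 control and 4 paused libraries. The peak shown for Akt1s1 is nearer to Tbc1d17. Tsc2 is the highest of the own peaks in both groups and Rictor the lowest, and the groups stand apart at Deptor, Tsc2 and Rheb.

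Mtor encodes the kinase itself, the target of INK128. Its span, chr4:148448582-148557685 on the plus strand, held 9 of its 10 own peaks, and none of the 10 passed the test in limma-trend, edgeR or DESeq2. The start-site peak at chr4:148448369-148448569, centred 113 bp before the start, was also its strongest. Its deposited value was 278, 284, 284 and 263 in control replicates 1 to 4 and 284, 319, 317 and 346 in paused replicates 1 to 4. Only paused replicate 1 lay among the control values, and the other 3 paused libraries were above them. The means were 277 ± 10.1 and 316 ± 25.3, and the change was 0.19 on the log2 scale (SE 0.10, adjusted p = 0.237). It became -0.02 after the correction for strength.

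The smallest p among the Mtor peaks was at chr4:148518435-148518635, inside the gene. This weak peak read 22.1, 21.5, 32.2 and 16.2 in control cells and 21.9, 4.73, 23.3 and 10.5 in paused cells. Paused replicates 2 and 4 were low and the other 2 lay among the controls, and the change was -0.75 on the log2 scale (SE 0.34, adjusted p = 0.129). Without paused replicate 3 its adjusted p was 0.0460 in limma-trend, and with all samples it was the 1 Mtor peak with an unadjusted p under 0.05. The 10 peaks had 5 changes above 0 and 5 below, with a median of 0.04.

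Rptor encodes Raptor, the scaffold that defines complex 1 and recruits its substrates. It is the longest of the 10 genes (chr11:119602905-119899591, plus strand, 297 kb) and had the most own peaks, 34. Of 33 tested, 6 were higher and 1 lower in paused cells, 24 changes were above 0 and 9 below, and the median was 0.14. The called peaks ran from 18178 bp before the start to 294419 bp after it, near the far end of the gene.

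The start-site peak of Rptor, at chr11:119602864-119603064 and centred 59 bp after the start, was its strongest. It read 179, 197, 130.4 and 198 in control cells and 232, 244, 194 and 231 in paused cells. Control replicate 3 was the lowest library, and paused replicate 3 lay below 2 of the controls, so that the groups overlapped. The mean rose from 176 ± 31.8 to 225 ± 21.8, a change of 0.37 on the log2 scale (SE 0.12, adjusted p = 0.0422). The call was lost without any one of control replicates 1 and 3 and paused replicates 1, 2 and 4 (adjusted p 0.0583 to 0.237), and in limma-trend after TMM or the strength correction, in edgeR with TMM and in DESeq2 (adjusted p 0.167 to 0.452).

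A peak upstream of Rptor at chr11:119584627-119584827, 18178 bp before the start, rose more. It read 49.4, 46.6, 45.7 and 38.2 in control cells and 79.6, 78.9, 55.9 and 83.2 in paused cells. All 4 paused values were above all controls, with paused replicate 3 the nearest to them. The mean went from 44.98 ± 4.79 to 74.4 ± 12.5, a change of 0.70 on the log2 scale (SE 0.16, adjusted p = 0.00308). It was called in each setting tried except DESeq2, where the adjusted p was 0.0603.

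The largest rise among the tested own peaks of the 10 genes was inside Rptor at chr11:119799604-119799804, 196799 bp after the start. It read 19.01, 26.3, 18.6 and 16.2 in control cells and 34.6, 47.3, 27.9 and 46.9 in paused cells. The groups did not overlap, and control replicate 2 and paused replicate 3 came within 2 units of each other. The mean rose from 20.02 ± 4.36 to 39.2 ± 9.53, a change of 0.92 on the log2 scale (SE 0.23, adjusted p = 0.00512), which DESeq2 put at an adjusted p of 0.0502.

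The other 3 rises inside Rptor were of middle size. The peak at chr11:119760308-119760508, 157503 bp after the start, read 51.2, 40.6, 60.96 and 57.3 in control cells and 78.4, 82.02, 76.03 and 78.5 in paused cells, a change of 0.59 on the log2 scale (SE 0.15, adjusted p = 0.00827). The peak at chr11:119897224-119897424, 294419 bp after the start, read 67.1, 58.5, 57.6 and 57.3 and 77.3, 107, 93.1 and 96.1, a change of 0.62 on the log2 scale (SE 0.15, adjusted p = 0.00326). In both peaks every paused library was above every control library, by the widest margin in the first, where the paused values lay between 76.0 and 82.0. DESeq2 gave adjusted p values of 0.115 and 0.0919, and the strength correction ended the first call (adjusted p = 0.0770 in limma-trend).

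The peak at chr11:119659394-119659594, 56589 bp after the start, read 54.97, 46.6, 54.2 and 38.2 in control cells and 70.4, 83.6, 55.9 and 76.2 in paused cells, a change of 0.55 on the log2 scale (SE 0.17, adjusted p = 0.0214). The groups did not overlap, but paused replicate 3 was less than 1 unit above control replicate 1. The call was lost in limma-trend without control replicate 4 or paused replicates 2 or 4 (adjusted p 0.0699 to 0.0864) and after the other scalings, with edgeR and DESeq2 included (0.0764 to 0.240).

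One Rptor peak fell. It lay at chr11:119871223-119871423, 268418 bp after the start, in the last stretch of the gene. It read 20.1, 13.1, 25.4 and 23.5 in control cells and 10.4, 9.46, 9.31 and 11.7 in paused cells. The paused values were tightly grouped and below all controls, of which replicate 2 was the lowest. The mean fell from 20.5 ± 5.399 to 10.2 ± 1.11, a change of -0.91 on the log2 scale (SE 0.30, adjusted p = 0.0394). The call held only without control replicate 2 when samples were left out one at a time, and the adjusted p was 0.0549 to 0.123 without each of the other 7, 0.091 in limma-trend after the strength correction and 0.0892 in DESeq2. The remaining 26 tested peaks of Rptor changed by -0.44 to 0.47 and were not called.

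**Figure D4:**
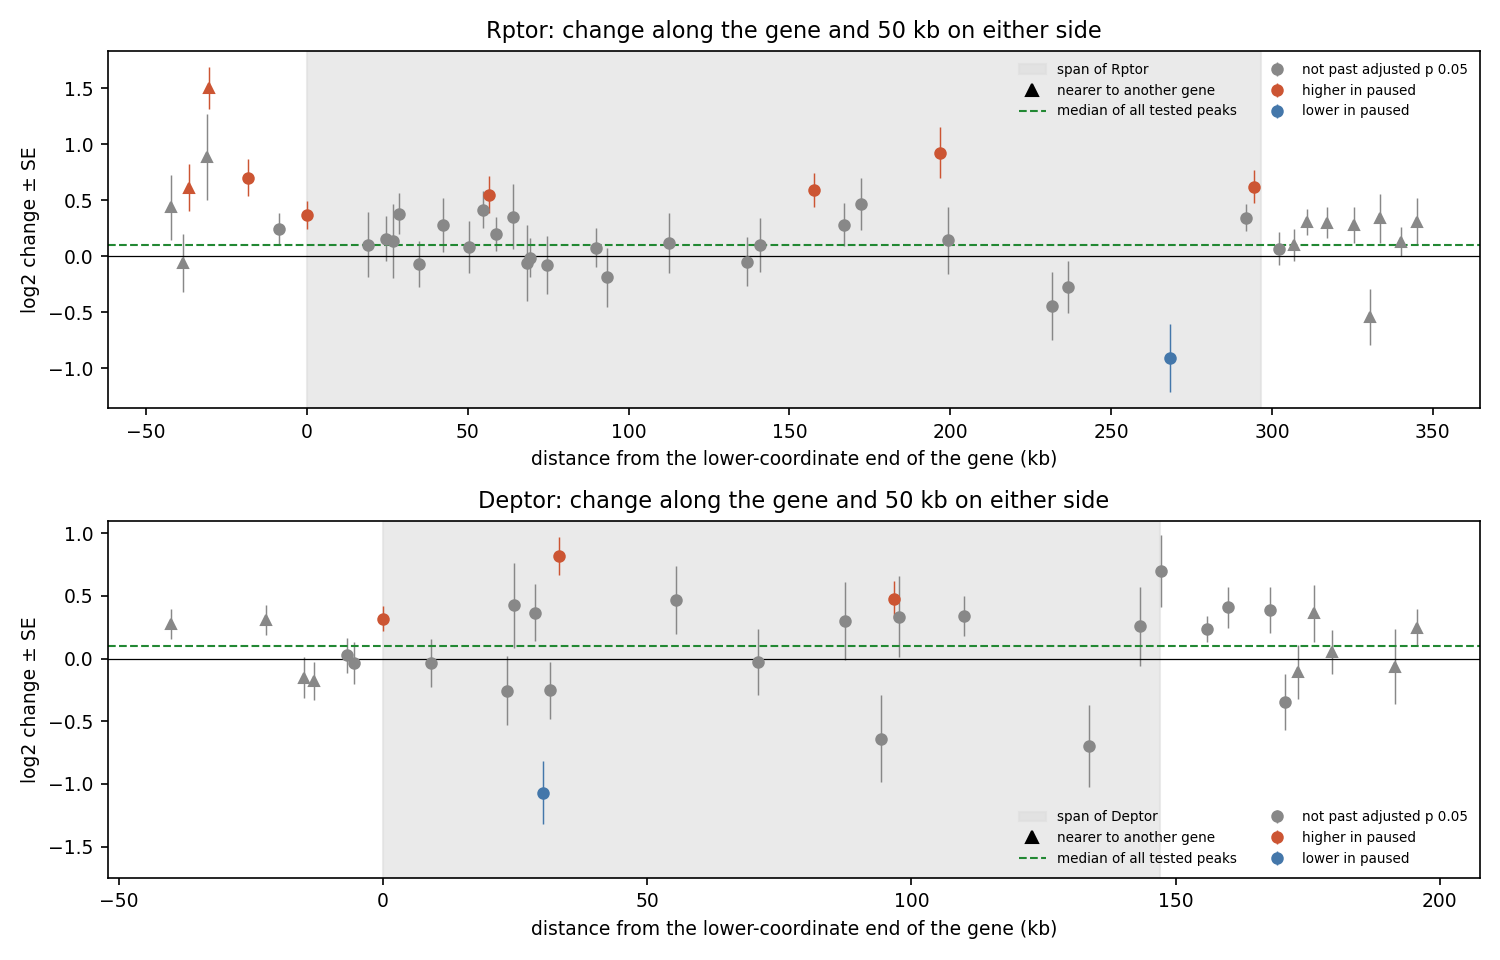
Log2 change (paused minus control, with SE) of each tested peak in the windows of Rptor and Deptor against its distance from the lower end of the gene in kb, with the span shaded, called peaks coloured and peaks nearer to another gene as triangles. Called rises are spread over the length of Rptor, and in Deptor a called fall and a called rise lie close together.

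Akt1s1 encodes PRAS40, a subunit and inhibitor of complex 1 and a substrate of Akt. Its span on the plus strand, chr7:44849224-44855421, is 6.2 kb long and held no peak, and all 20 peaks in its window lay nearer to another gene. The nearest was at chr7:44849010-44849210, 114 bp from Akt1s1 and 31 bp beyond the end of Tbc1d17, a gene for a Rab GTPase-activating protein. It had the highest level of any named peak, 354, 312, 442 and 419 in control cells and 428, 473, 534 and 542 in paused cells. Paused replicate 1 lay below control replicate 3, and the other 3 paused values were above all controls. The mean rose from 382 ± 59.6 to 494 ± 53.9, a change of 0.38 on the log2 scale (SE 0.11, adjusted p = 0.0165). The call was lost without control replicate 2 or paused replicate 4 (adjusted p 0.0688 to 0.086 in limma-trend) and under the other scalings, edgeR and DESeq2 included (0.0684 to 0.241).

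Deptor encodes a protein that binds mTOR in both complexes and holds the kinase down. It spans chr15:55112317-55259273 and had 24 own peaks, all tested, with 17 inside the gene. In paused cells 3 were higher and 1 lower, 15 changes were above 0 and 9 below, and the median of 0.28 was the highest of the 9 genes. RefSeq gave no start site for it here, so distances are from the ends of the span.

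The peak at the lower end of Deptor, chr15:55112287-55112487, 70 bp inside the span, was among the strong ones. It read 264, 293, 278 and 270.4 in control cells and 359, 312, 360.0 and 350.3 in paused cells. Each paused value was above each control value, the closest being paused replicate 2. The mean rose from 276 ± 12.2 to 345 ± 22.4, a change of 0.32 on the log2 scale (SE 0.10, adjusted p = 0.0313). The call was lost without any one of control replicates 1, 3 and 4 and paused replicates 1, 3 and 4 (adjusted p 0.0632 to 0.0872 in limma-trend), and under the other scalings, edgeR and DESeq2 included (0.154 to 0.473).

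Inside Deptor a rise and a fall lay close together. The peak at chr15:55145523-55145723, 33306 bp from the lower end, read 42.2, 47.8, 50.8 and 47.02 in control cells and 88.8, 74.1, 79.1 and 93.7 in paused cells. The paused values were all more than 20 units above the highest control. Its mean rose from 46.9 ± 3.58 to 83.95 ± 8.93, a change of 0.82 on the log2 scale (SE 0.15, adjusted p = 0.000276). The peak at chr15:55142447-55142647, 30230 bp from the lower end, read 31.5, 37.02, 42.3 and 47.02 in control cells and 25.4, 12.6, 27.9 and 11.7 in paused cells. All paused values were below all controls, with paused replicates 2 and 4 the lowest. Its mean fell from 39.5 ± 6.72 to 19.4 ± 8.44, a change of -1.07 on the log2 scale (SE 0.25, adjusted p = 0.00311), the largest fall among the tested own peaks.

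The centres of these peaks were 3076 bp apart, with 1 peak between them that changed by -0.25 (adjusted p = 0.489). They were the 2 of the 12 calls that passed in every setting that tested them, the highest adjusted p being 0.00498 for the rise and 0.0230 for the fall. The difference between them was not tested.

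The last called peak of Deptor, at chr15:55208849-55209049, 50324 bp from the upper end of the span, read 73.6, 66.9, 81.3 and 88.2 in control cells and 103, 85.2, 133 and 114 in paused cells. Paused replicate 2 lay among the upper controls, so that the groups overlapped, and the change was 0.47 on the log2 scale (SE 0.14, adjusted p = 0.0238). The call was lost without control replicates 1 or 2 or paused replicates 3 or 4 (adjusted p 0.0620 to 0.103 in limma-trend), and after TMM, the strength correction or in DESeq2 (0.0873 to 0.215). The strongest Deptor peak, at chr15:55268128-55268328, 8955 bp beyond the upper end, read 278, 299.8, 268 and 337 in control cells and 349.5, 333, 355 and 348 in paused cells. One control value, 337, was above the lowest paused value, and the change was 0.23 on the log2 scale (SE 0.10, adjusted p = 0.125). The 20 uncalled peaks of Deptor changed by -0.70 to 0.70.

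Rictor encodes the scaffold of complex 2. It spans chr15:6708349-6800401 on the plus strand and had 6 own peaks, all tested. None was called by limma-trend, edgeR or DESeq2, and none had an unadjusted p under 0.05 in limma-trend with the deposited factors. Its start-site peak at chr15:6708199-6708399 was the weakest of the 9 start or end peaks. It read 57.04, 74.05, 50.8 and 47.02 in control cells and 64.6, 52.05, 57.4 and 36.3 in paused cells. The groups overlapped, with paused replicate 4 the lowest library, and the change was -0.13 on the log2 scale (SE 0.18, adjusted p = 0.678). The strongest peak, inside the gene at chr15:6746635-6746835, read 108, 156, 135 and 151 and 128, 107, 124 and 130.0, a change of -0.16 on the log2 scale (SE 0.13, adjusted p = 0.445). Here control replicate 1 was among the paused values and the other controls were above them. Over the settings tried the change of this peak ran from -0.36 to -0.09, never with a call. Of the 6 changes 5 were below 0, with a median of -0.08.

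Tsc1 encodes hamartin, which stabilises the complex that keeps Rheb inactive. It spans chr2:28640993-28691172 on the plus strand and had 7 own peaks, all tested. None was called by limma-trend, edgeR or DESeq2, and none had an unadjusted p under 0.05 in limma-trend with the deposited factors. The start-site peak at chr2:28641171-28641371 read 137, 150.5, 120.2 and 91.1 in control cells and 150.0, 158, 123 and 143 in paused cells. Control replicate 4 was low and the other libraries of both groups overlapped, and the change was 0.22 on the log2 scale (SE 0.14, adjusted p = 0.293). Its strongest peak, at chr2:28638872-28639072 and 2261 bp before the start site, read 137, 168, 117 and 113 and 143, 162, 107 and 141, a change of 0.05 on the log2 scale (SE 0.14, adjusted p = 0.849), with full overlap. The smallest p was inside the gene at chr2:28656348-28656548, with 58.4, 45.4, 40.6 and 51.4 in control and 54.2, 63.1, 66.7 and 59.8 in paused cells, a change of 0.32 on the log2 scale (SE 0.16, adjusted p = 0.192). Of the 7 changes 6 were above 0, with a median of 0.05.

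Tsc2 encodes tuberin, the GTPase-activating subunit of that complex. It spans chr17:24595816-24632676 on the minus strand, and its 10 own peaks all lay inside it. Of the 7 tested, 1 was higher, at the start. That peak, at chr17:24632560-24632760 and centred 33 bp before the start, was the strongest of the own peaks. It read 321, 337, 317 and 351 in control cells and 391, 409, 427 and 412 in paused cells. The groups did not overlap, and every paused value was at least 39 units above the highest control. The mean rose from 331 ± 15.8 to 409.7 ± 14.7, a change of 0.31 on the log2 scale (SE 0.10, adjusted p = 0.0327). The span of Nthl1, a DNA glycosylase gene, begins 20 bp from the centre of this peak, so that accessibility of the 2 genes cannot be told apart there. The call was lost without any one of control replicates 1 and 3 and paused replicates 2, 3 and 4 (adjusted p 0.0653 to 0.0921 in limma-trend), and under the other scalings, edgeR and DESeq2 included (0.165 to 0.519).

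Rheb encodes the small GTPase that activates complex 1 at the lysosome. It spans chr5:24802823-24842361 on the minus strand and had 9 own peaks, of which 8 were tested and none was called. The start-site peak at chr5:24842539-24842739, 278 bp before the start, shares 73 bases with the printed promoter and was the strongest. It read 222, 257, 202 and 213 in control cells and 292, 268, 268 and 271 in paused cells. All 4 paused values were above all controls, paused replicate 1 by the most, and control replicate 2 was the nearest to them. The mean went from 223 ± 23.8 to 275 ± 11.4, a change of 0.30 on the log2 scale (SE 0.11, adjusted p = 0.0551), just outside the threshold. It passed without control replicate 2 (adjusted p = 0.0230 in limma-trend), with the filter at a mean of 50 reads (0.0395) and with a block on the replicate number. It did not pass after the strength correction (0.617). Over the genome 17.4% of tested peaks had groups that did not overlap, 13.0% with paused above control and 4.36% with paused below. Unadjusted p in limma-trend with the deposited factors was under 0.05 at 3 of the 8 peaks, 1 higher and 2 lower. Of the lower ones edgeR with TMM called 1 where DESeq2 called none.

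Rps6kb1 encodes S6 kinase 1, whose phosphorylation by complex 1 promotes ribosome production and translation. It spans chr11:86498869-86544885 on the minus strand and had 3 own peaks. None was called by limma-trend, edgeR or DESeq2, and none had an unadjusted p under 0.05 in limma-trend with the deposited factors. The start-site peak at chr11:86544751-86544951, 140 bp from the span of the tubulin gene Tubd1, read 245, 225, 242 and 262 in control cells and 234, 232, 219 and 308 in paused cells. Paused replicate 4 was the highest library and the other 3 lay around the lowest control, and the change was 0.02 on the log2 scale (SE 0.11, adjusted p = 0.941). The smallest p was at chr11:86501609-86501809, with 40.8, 63.3, 33.9 and 33.8 in control and 44.99, 31.6, 38.8 and 35.1 in paused cells, a change of -0.15 on the log2 scale (SE 0.20, adjusted p = 0.663).

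Eif4ebp1 encodes 4E-BP1, which binds the cap-binding factor eIF4E and blocks translation until complex 1 phosphorylates it. It spans chr8:27260327-27275656 and had 8 own peaks, of which 7 were tested. None was called by limma-trend, edgeR or DESeq2, and none had an unadjusted p under 0.05 in limma-trend with the deposited factors. The peak 225 bp inside its lower end, at chr8:27260452-27260652, read 120.3, 130.2, 110.1 and 119 in control cells and 137, 107, 107 and 103 in paused cells. Paused replicate 1 was the highest of the 8 libraries and the other 3 paused values were below all controls, and the change was -0.08 on the log2 scale (SE 0.13, adjusted p = 0.713). The strongest peak, at chr8:27250852-27251052 and 9375 bp outside the gene, read 203, 195, 232 and 222 and 243, 199, 211 and 245, a change of 0.07 on the log2 scale (SE 0.11, adjusted p = 0.704). The smallest p was at chr8:27273992-27274192, with 24.5, 17.9, 22.01 and 24.98 and 24.2, 33.1, 29.5 and 29.3, a change of 0.36 on the log2 scale (SE 0.23, adjusted p = 0.289). The groups overlapped in both.

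Summed over all own peaks, accessibility was higher in paused cells at Rptor and Deptor and at none of the other 7 genes with own peaks. The Rptor sum was 1571, 1437, 1343 and 1477 in control and 1774, 1823, 1603 and 1812 in paused cells. The Deptor sum was 1294, 1372, 1382 and 1389 and 1559.6, 1503, 1663 and 1583. At both genes every paused library was above every control library, which held for 25.7% of all genes, and the reverse for 1.60%. The change was 0.27 on the log2 scale (SE 0.05, adjusted p = 0.000416) for Rptor and 0.21 on the log2 scale (SE 0.05, adjusted p = 0.00153) for Deptor in limma-trend over 18178 genes, of which 29.8% were called higher and 1.40% lower and whose median change was 0.15. These shares were 7.56% and 2.38% after TMM, 4.67% and 4.30% after the strength correction and 4.86% and 4.79% in edgeR with TMM. DESeq2 called 514 of the 18178 sums higher and 445 lower. After TMM the Rptor sum kept its call (adjusted p = 0.0348) and the Deptor sum did not (0.0995), and neither passed after the strength correction (0.143 and 0.397), in edgeR with TMM (0.211 and 0.308) or in DESeq2 (0.344 and 0.468).

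The other 7 sums were not called. The Mtor sum was 579.7, 578, 603 and 508 in control and 565, 559.9, 655 and 662 in paused cells, with overlap, a change of 0.10 on the log2 scale (SE 0.07, adjusted p = 0.279). The Rictor sum was 266, 325, 264 and 267 and 272, 249, 253 and 272, where control replicate 2 stood above the other controls, a change of -0.10 on the log2 scale (SE 0.09, adjusted p = 0.418). It was larger, -0.20 to -0.25, under TMM, the strength correction, edgeR with TMM and DESeq2, still without a call (adjusted p 0.0705 to 0.162), and -0.02 without control replicate 2. The changes were 0.13 for Tsc1, 0.14 for Tsc2, 0.09 for Rheb, -0.01 for Rps6kb1 and -0.03 for Eif4ebp1, with adjusted p from 0.117 to 0.941. No sum was called lower by limma-trend, edgeR or DESeq2. None had a lower value with an unadjusted p under 0.05 in limma-trend with the deposited factors, and the unadjusted p of the other fits was not examined.

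Of the 121 window peaks that lay nearer to another gene, 116 were tested, 12 rose and 1 fell, or 11.2% called. The largest rise among the tested peaks of all the windows was at chr11:119572485-119572685, 30320 bp before the start of Rptor and nearer to Nptx1, a gene for a neuronal pentraxin. It read 28.7, 29.9, 25.4 and 24.98 in control cells and 85.4, 99.4, 51.2 and 89.04 in paused cells, and the mean rose from 27.2 ± 2.41 to 81.2 ± 20.9, a change of 1.505 on the log2 scale (SE 0.19, adjusted p = 1.09e-06). Its lowest paused value was well above its highest control value. A neighbour at chr11:119566291-119566491, also nearest to Nptx1, rose by 0.61 on the log2 scale (SE 0.21, adjusted p = 0.0411), with paused replicate 3 below control replicate 2. That call was lost without any one of control replicates 1, 3 and 4 and paused replicates 1, 2 and 4 (adjusted p 0.0588 to 0.162 in limma-trend), and under TMM, the strength correction, edgeR with TMM and DESeq2 (0.0569 to 0.241).

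Beside Rictor, the peak at chr15:6669069-6669269, nearest to the immune adaptor gene Fyb, read 26.96, 19.1, 6.77 and 32.3 in control cells and 44.99, 45.7, 54.3 and 41.01 in paused cells, a change of 1.28 on the log2 scale (SE 0.27, adjusted p = 0.00145). Control replicate 3 was far below the other controls, and all paused values were above all controls. Beside Tsc1, the peak at chr2:28607518-28607718, nearest to the blood transcription factor gene Gfi1b, read 156, 145, 139 and 173 and 276, 241, 268 and 295, a change of 0.82 on the log2 scale (SE 0.11, adjusted p = 5.67e-06), again without overlap. These peaks near Nptx1 (the larger), Fyb and Gfi1b were called in every setting tried that tested them.

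**Figure D5:**
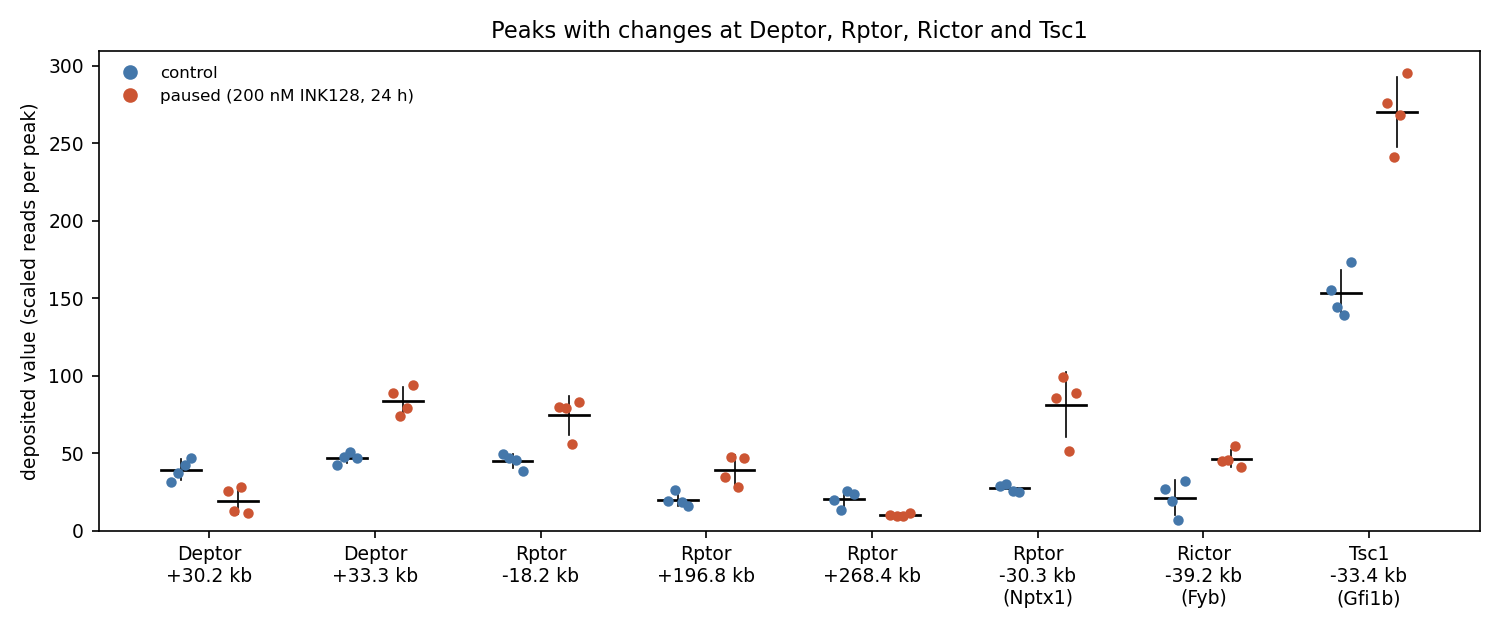
Deposited value of each library (points), with group mean (bars) and SD (lines), at 8 called peaks. Each is named by its gene, its distance in kb from the lower end of that gene and, in brackets, the nearer gene where there is one. Positive distances here lie inside the gene. The 4 paused libraries lie below the 4 controls at 1 peak of Deptor and 1 of Rptor and above them at the other 6.

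The other called window peaks lost the call in at least 1 setting. Near Ak8 on the far side of Tsc1, the peak at chr2:28700026-28700226 went from 117 ± 14.7 to 161 ± 10.6, a change of 0.46 on the log2 scale (SE 0.12, adjusted p = 0.00981), with an adjusted p of 0.0603 in edgeR with TMM, of 0.171 in DESeq2 and of 0.169 in limma-trend after the strength correction. That peak was centred 475 bp from an end of Spaca9. Near Akt1s1, 3 further peaks rose, 2 nearest to the stress transcription factor gene Atf5 (0.85 and 0.42, adjusted p = 0.0183 and 0.00958) and 1 inside Ptov1 (0.31, adjusted p = 0.0491). The smaller Atf5 rise was centred 211 bp from an end of Nup62. Near Eif4ebp1, a peak nearest to the adrenergic receptor gene Adrb3 rose by 0.36 (adjusted p = 0.0195) and one nearest to Tex24 by 0.61 (adjusted p = 0.00474). A peak near Rps6kb1 and nearest to Rnft1 rose by 0.41 (adjusted p = 0.0385, limma-trend as before). Of these, 5 lost the call when 1 library was left out: the Atf5 peaks without control replicate 3 or paused replicates 1 or 4 (0.0532 to 0.0999) and without paused replicate 4 (0.0606), the Ptov1 peak without control replicates 1, 2 or 4 or paused replicates 1, 2 or 3 (0.0583 to 0.185), the Adrb3 peak without control replicate 1 or paused replicate 3 (0.0607 to 0.0774), and the Rnft1 peak without control replicates 1, 2 or 3 or paused replicates 1, 3 or 4 (0.0585 to 0.165). TMM, the strength correction, edgeR with TMM and DESeq2 each ended the calls of the smaller Atf5 rise (0.0512 to 0.197), of the Ptov1 peak (0.214 to 0.576), of the Adrb3 peak (0.0787 to 0.301) and of the Rnft1 peak (0.0805 to 0.356). The larger Atf5 rise lost its call in edgeR with TMM and DESeq2 (0.110 and 0.263), the Tex24 peak after the strength correction and in DESeq2 (0.0584 and 0.108), and the Ptov1 peak also with no filter (0.0516).

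The single fall was near Tsc2, at chr17:24645180-24645380 inside Slc9a3r2, a gene for a scaffold protein of ion transporters. It read 24.2, 32.2, 23.7 and 24.98 in control cells and 16.1, 14.2, 13.96 and 16.4 in paused cells, a change of -0.75 on the log2 scale (SE 0.25, adjusted p = 0.0400). The groups did not overlap, but the call was lost when any 1 of the 8 libraries was left out (adjusted p 0.0511 to 0.131 in limma-trend) and in DESeq2 (0.104).

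The authors' deposited table holds their own comparison of the same peaks, with an FDR under 0.05 for 9.19% of all peaks in the higher and 1.80% in the lower direction. By that measure 10 own peaks were higher and 2 lower in the authors' deposited table. The lower ones were the fall inside Deptor described above and a weak peak outside Rheb at chr5:24780680-24780880, which was below the limit for testing here. It had mean values of 11.3 in control and 2.83 in paused cells, and the authors' deposited table gives it a log2 fold of -0.49 with an FDR of 0.0198. The fall inside Rptor had an FDR of 0.0641 in the authors' deposited table.

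Other genes of the pathway were taken from a list of 35, covering further subunits, upstream regulators and effectors. There were 34 with own peaks and Maf1, a repressor of RNA polymerase III, had none. Of 291 tested peaks 22 rose and 10 fell, 11.0% against the 13.9% of all peaks, with a median change of 0.02. The calls fell on 18 genes. Subunits and assembly factors had 6 rises and 2 falls among 67 peaks with a median of 0.16. Upstream regulators had 4 rises and 5 falls among 77 with a median of -0.15, effectors had 12 rises and 3 falls among 139 with a median of -0.00, and Tbc1d7 and Rhebl1 had no call among 8.

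Of all peaks nearest to a start site within 1 kb, 11.3% were called higher and 1.04% lower. Rhebl1, Rps6kb2, Eif4ebp3 and Maf1 had no listed start site, and the tested start-site peaks of the other listed genes were not counted. A called start-site peak was found at 2 genes of the list. Telo2, a factor that helps assemble mTOR and related kinases, had one at chr17:25115904-25116104, which read 137, 148, 171 and 172 in control cells and 190.3, 181, 229.6 and 194 in paused cells, a change of 0.34 on the log2 scale (SE 0.12, adjusted p = 0.0484). Prr5, the complex 2 subunit Protor-1, had one at chr15:84663030-84663230, which read 140.3, 161, 139 and 119 and 169.6, 199, 174 and 172, a change of 0.36 on the log2 scale (SE 0.12, adjusted p = 0.0418). Both had all paused values above all controls, and both lost the call when single libraries were left out, 6 of the 8 for Telo2 (adjusted p 0.0510 to 0.162 in limma-trend) and 7 for Prr5 (0.0504 to 0.151). TMM, the strength correction, edgeR with TMM and DESeq2 also ended both calls (0.127 to 0.481 for Telo2 and 0.171 to 0.465 for Prr5).

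Sgk1, a kinase activated by complex 2, had the most rises in the list, 6 of 26 peaks. Ddit4, the stress-induced inhibitor REDD1, had the most falls, 3 of 12, and all 12 lay outside the gene. The largest called rise was at a weak own peak of Lpin1, the gene of the lipid regulator lipin 1. It lay at chr12:16497986-16498186, 37583 bp outside the gene, with as few as 3 reads in a library. It read 11.8, 9.55, 8.47 and 4.41 in control cells and 26.5, 17.4, 27.9 and 31.6 in paused cells, a change of 1.53 on the log2 scale (SE 0.32, adjusted p = 0.000948). The largest called fall was at an own peak of Ddit4, at chr10:59964202-59964402 and 12532 bp outside the gene. It read 27.3, 23.9, 23.7 and 23.5 and 8.07, 9.46, 9.31 and 16.4, a change of -1.16 on the log2 scale (SE 0.29, adjusted p = 0.00518). In both peaks the groups were fully apart, and both calls held in every setting tried that tested them.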

How the data were processed

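ATAC-seq libraries of 4 control and 4 paused samples were compared, grouped by their titles. Per the submitters' processing notes, FastQC, Trim Galore, Bowtie2 2.4.1, MACS3 3.0.3, DiffBind 3.16.0 and the build mm10 were used, with no parameters given in the sources used here. The authors deposited 1 table of 134407 peaks. Its per-sample values are a signal that the authors made as reads divided by 1 factor per sample: 100% of values were whole multiples of a step (tolerance 0.0051), which recovered the reads. The authors also deposited the log2 fold, p-value and FDR of their comparison. No per-sample column was left unused.

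Peaks were tested with limma-trend (limma 3.58.1, R 4.3.3) on log2(value + 1) over the 127402 peaks with a mean of at least 10, with Benjamini-Hochberg adjustment over all of them and no covariates. This scale understates changes of weak peaks. The design had assumed raw counts, and the test was changed to fit the scaled values. Gene sums add the values of a gene's own peaks. Alternatives were a pseudocount of 0.1, no filter, a mean of at least 50 reads, TMM, a loess correction on strength (span 0.3), edgeR 4.0.16 quasi-likelihood, DESeq2 1.42.0, a block on the replicate number, each sample left out, assignment by the nearest gene end and a window of 10 kb. edgeR with the authors' factors was added after seeing the data. On the recovered reads it called 16424 peaks higher and 4621 lower.

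Depth was 4434037 to 21161767 reads in peaks; 0 reads in a library allow up to 3, a value of 1.04 to 5.08. Intervals from reads cover counting error only. The closest pair of libraries within a group, control replicates 3 and 4, still differed beyond sampling noise (chi-square per degree of freedom 1.09). On simulated data limma-trend found 90 of 100 peaks changed by log2 1 and 99 of 100 changed by 1.5, with 4 unchanged peaks called among 126077 tested. The 200 changed peaks were drawn from those at or above the median strength, and all others were level on the deposited scale. Recovery of weaker peaks, and calls under the strength trend of the real data, were therefore not measured.

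Genes came from RefSeq GRCm38.p6, which gives no exons here. Named peaks were those nearest to the start, those called, the strongest, and that with the smallest p where none was called. Members, lists and rules were chosen with earlier results of these data known. Window peaks nearer to another gene were named only where called.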

Additional observations from a re-analysis of the deposited data

Results flagged for a closer look

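Among 106 groups of 4 values, 10 had 1 library that stood apart from the other 3 by more than Dixon's limit at the 95% level, where about 5% are expected by chance. In control cells, replicate 1 was high at the Rptor peak near the end of the gene (67.07, others 57.31 to 58.52), at the largest Ddit4 fall (27.31, others 23.51 to 23.89) and in reads in peaks (21161767, others 4434037 to 6262445). Control replicate 2 was high at the fallen peak inside Slc9a3r2 near Tsc2 (32.25, others 23.71 to 24.98) and in the Rictor sum (324.87, others 264.15 to 267.44).

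In paused cells, replicate 3 was low at the Rptor peak 18178 bp before the start (55.86, others 78.86 to 83.18). Paused replicate 1 was high at the Rheb start-site peak (291.85, others 268.14 to 270.63) and at the lower end of Eif4ebp1 (137.27, others 103.1 to 107.25). Paused replicate 2 was high at the Prr5 start-site peak (198.74, others 169.57 to 173.78), and paused replicate 4 at the largest Ddit4 fall (16.4, others 8.07 to 9.46). Without the library named, the peak inside Slc9a3r2 and the Prr5 start-site peak lost their calls.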

How the results depend on the processing

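Over 52 results and their alternatives, 683 of 880 values kept direction and side of the threshold, 151 lost the call, 4 gained it and 42 turned direction. The cause was not tested. The own peaks called higher, 10, became 5 with TMM, 4 with loess, 6 with edgeR and TMM, 1 with DESeq2, 6 by nearest gene end, and 5 to 12 with 1 sample left out (6 without control replicate 1, 5 without paused replicate 4). Those called lower, 2, became 0 at a mean of 50 reads and 1 with loess or DESeq2, and 1 to 2 with 1 sample left out (1 without control replicates 1, 3 or 4 or paused replicates 1 or 2). The window peaks nearer to another gene called higher, 12, became 6, 4, 4 and 3 with TMM, loess, edgeR and DESeq2, and 7 to 11 with 1 sample left out. The 1 called lower became 2 with no filter, TMM, loess, both edgeR fits and the block, 0 at a mean of 50 reads and with DESeq2, and 0 to 1 with 1 left out. The other pathway peaks called higher, 22, became 8, 7, 8 and 3 with TMM, loess, edgeR and DESeq2, and 12 to 18 with 1 left out (13 without control replicate 1, 14 and 12 without paused replicates 2 and 4). Those called lower, 10, became 2 at a mean of 50 reads, 21 with edgeR and TMM, 5 with DESeq2 and 6 to 9 with 1 left out (6 without control replicates 1 or 3 or paused replicate 2). The gene sums called higher, 2, became 1 with TMM and 0 with loess, edgeR and DESeq2. Of all called gene sums 95.5% were higher, against 76.0% with TMM and 52.0% with loess.

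Of the 12 called own peaks, 6 were called whichever single sample was left out. The labels do not say whether same-numbered samples belong together. Deviations of same-numbered samples correlated at 0.0358 to 0.133 over peaks, and those of differently numbered samples at -0.105 to 0.0703. Of 8 samples 6 correlated best with their own number. The main test used no pairing, and whether same-numbered samples shared a batch was not tested. With the replicate block 12 own peaks were higher and 2 lower, 29 and 11 of the other pathway, 17 and 2 of the window peaks nearer to another gene, and 2 gene sums higher, and the Rheb start-site peak was called (adjusted p = 0.0269 in limma-trend); 17371 and 4623 of all peaks were called.

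Directions that turned were all of changes that were not called. After loess the Mtor start-site peak was -0.0233. With 1 sample left out the Rictor start-site peak ran from -0.236 to 0.0354, above 0 without control replicate 2 (0.00059) or paused replicate 4. The strongest Tsc1 peak was -0.0521, -0.153, -0.0750 and -0.0704 with TMM, loess, edgeR and DESeq2, and -0.0094, -0.0247 and -0.033 without control replicates 3 or 4 or paused replicate 2, with a highest value of 0.166 without paused replicate 3. The Rps6kb1 start-site peak was -0.0847, -0.19, -0.0708 and -0.0722 in the same order, and -0.0209 and -0.0909 without control replicate 2 or paused replicate 4, with a highest value of 0.0732. With 1 sample left out its other named peak ran from -0.246 to 0.0495, the latter without control replicate 2, and its lowest value over all settings was -0.30 (DESeq2). The strongest Eif4ebp1 peak was -0.027, -0.132, -0.0077 and -0.0106. Gene sums with loess, edgeR and DESeq2 were -0.0474, -0.0496 and -0.0487 for Mtor, -0.0188, -0.0385 and -0.0315 for Tsc1, -0.0135, -0.0174 and -0.0175 for Tsc2, and -0.0647, -0.0616 and -0.0619 for Rheb, with -0.0138 for Rheb after TMM. The Rps6kb1 sum was 0.0138 in edgeR with the authors' factors, 0.0165 by nearest gene end, and 0.00062, 0.0119, 0.0228 and 0.0515 without control replicates 2 or 4 or paused replicates 2 or 3, with -0.114 without paused replicate 4 and a lowest value over all settings of -0.164 (loess). The Eif4ebp1 sum was 0.00618 and 0.0102 without control replicate 3 or paused replicate 2, with a lowest value of -0.0661 among the samples left out and of -0.176 over all settings (loess). Depth limits the weak peaks most: at the median peak the counting error of a single library reached 0.34, in the shallowest one. The counting error of a difference between group means was not computed.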
